A study of Mus musculus with 6 samples.

Results

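The Hox genes were examined in mouse enterospheres with and without thyroid hormone. Enterospheres are balls of cells, rich in progenitors of the enteric nervous system, that float in culture; these came from circular gut muscle of newborn C57BL/6 animals. They were taken as all genes whose symbol is Hox, a cluster letter and a number, and which had a probe set of their own on the expression array. This rule was met by 37 genes, out of 19938 genes measured in all. Hoxb8 shared its probe set with Hoxb7, which also has one of its own. Each of the 37 had a single probe set, so no choice among probe sets was needed.

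No genetic change is named in the labels. The spheres grew for 4 and then 5 days with epidermal and fibroblast growth factor, and were moved to differentiation medium 1 day before treatment. The T3 group held 3 samples kept for 1 day with 100 nM triiodothyronine (the labels write the unit as nm), the thyroid hormone that binds nuclear receptors, and the 3 control samples had no T3. Each sample pooled cells from 3 mice and was hybridised to 1 array. The labels name the gut as the source but no stretch of it.

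Hox genes encode homeodomain transcription factors that give cells an identity along the head-to-tail axis of the body. They lie in 4 clusters, and the number of a gene, its paralog group, gives its place in the cluster. Low numbers are switched on early and reach far forward, high numbers come later and stay near the tail, an order known as collinearity. Most of the enteric nervous system descends from vagal neural crest, which leaves the hindbrain at a level of anterior and middle Hox genes, while a smaller sacral contribution reaches the hindgut. The muscle and connective tissue of the gut wall carry Hox genes of their own, and those of the highest numbers mark the hindgut there.

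Values are deposited log2 signals, for which 1 unit is a doubling. The array medians over the genes tested lay between 6.93 and 7.0, and 3 arrays per group limit the precision. No detection calls came with the values, so dim probe sets may or may not exceed background. Probe sets also differ in how strongly they bind, so signals of different genes, given here as log2 values and as percentiles among all genes, describe probe sets, and their order is not an order of RNA amounts. Markers of enteric neural progenitors averaged 11.40 in controls and fibroblast and mesenchyme markers 10.73, against 5.39 for epithelium and 5.11 for macrophages and leukocytes. Enteric glia markers averaged 10.58, neuron markers 9.68 and markers of interstitial cells of Cajal 9.57. Smooth muscle markers averaged 7.45, endothelium markers 6.32 and mesothelium markers 5.69. A Hox signal in these whole spheres can therefore not be placed in one cell type, and fewer cells of a type and less RNA per cell cannot be told apart.

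In control spheres the bright Hox signals lay in the front and middle of the clusters and most of the dim ones at the posterior end. Above the 75th percentile of all genes (a log2 value of 8.75) stood 6 of 37 members, Hoxc8, Hoxa5, Hoxd3, Hoxb3, Hoxb5 and Hoxb2. By definition 25% of all genes exceed that value. These 6 were among the 21 members of groups 1 to 8. Of those 21, 12 were above the median of all genes, which 50% of genes exceed by definition. All 16 members of paralog groups 9 to 13 were below the median of all genes (6.96), and 10 of them were below the 25th percentile (5.08). Of groups 1 to 8, 1 member, Hoxd1, was below the 25th percentile. The median control signal was 8.37 for the 7 members of groups 1 to 3, 7.12 for the 14 members of groups 4 to 8 and 4.97 for the 16 members of groups 9 to 13. Across the 37 members the control signal and the paralog number had a Spearman rho of -0.67 and a Pearson r of -0.65, a description over probe sets that share the same arrays and differ in affinity. Within clusters, rho was -0.79 for the 10 Hoxa genes, -0.60 for the 9 Hoxb genes, -0.77 for the 9 Hoxc genes and -0.35 for the 9 Hoxd genes.

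**Figure D1:**
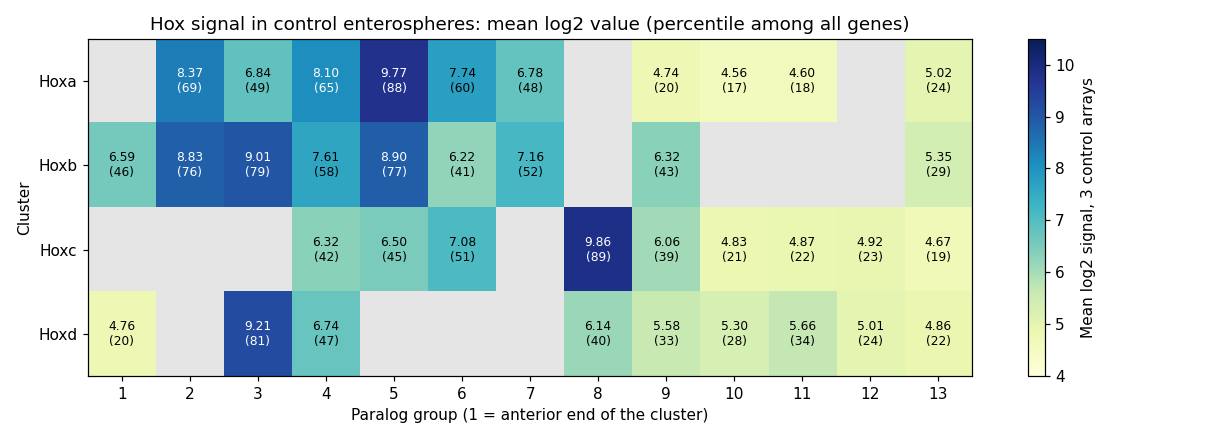
Mean control log2 signal of each Hox gene (3 arrays), by cluster (rows) and paralog group (columns), with its percentile among 19938 genes in parentheses; grey squares have no gene or no gene analysed here. Dark squares lie in groups 2 to 8, led by Hoxc8 at 9.86 and Hoxa5 at 9.77, and groups 9 to 13 are pale in every cluster.

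Among the most anterior genes, Hoxb3 and Hoxd3, which act in hindbrain and neck patterning, were bright. Hoxd3 read 9.27, 9.28 and 9.07 in control replicates 1 to 3, a mean of 9.21 ± 0.12 (SD, n = 3) at percentile 81.5. Hoxb3 read 9.06, 9.05 and 8.93, a mean of 9.01 ± 0.07 (SD, n = 3) at percentile 78.8. Their paralog Hoxa3, needed for the thymus and parathyroid, had 6.84 ± 0.08 (SD, n = 3), near the median of all genes. The gene pair of group 2, regulators of hindbrain segments and of the neural crest that fills the branchial arches, was above the median, with Hoxb2 at 8.83 ± 0.28 (SD, n = 3) and Hoxa2 at 8.37 ± 0.04 (SD, n = 3). Hoxb2 was the one bright member whose place depended on the array, at percentile 79.1 on control replicate 2 and 72.4 on control replicate 3. Group 1, which acts at the front of the Hox domain, was dimmer. Hoxb1 stood at 6.59 ± 0.08 (SD, n = 3), and Hoxd1, known in mouse for the wiring of pain-sensing neurons, at 4.76 ± 0.13 (SD, n = 3), the lowest of the 21 members of groups 1 to 8.

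In the middle of the clusters, group 5 held a pair of bright genes. Hoxa5, which patterns lung, stomach and gut mesenchyme, read 9.69, 9.83 and 9.79 in control replicates 1 to 3, a mean of 9.77 ± 0.07 (SD, n = 3) at percentile 88.2. Hoxb5, which acts in vagal neural crest upstream of the receptor gene Ret in mouse, read 8.81, 8.97 and 8.92, a mean of 8.90 ± 0.08 (SD, n = 3) at percentile 77.3. Hoxc5 was dimmer, at 6.5 ± 0.22 (SD, n = 3). The brightest Hox signal was that of Hoxc8, a gene of trunk and brachial identity, with 9.86, 9.93 and 9.80 in controls, a mean of 9.86 ± 0.07 (SD, n = 3) at percentile 89.2. Its measured paralog Hoxd8 had 6.14 ± 0.12 (SD, n = 3). Hoxa5, Hoxc8, Hoxb3, Hoxb5 and Hoxd3 were above the 75th percentile on every one of the 6 arrays.

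The remaining genes of the middle groups lay between percentiles 41.2 and 65.2. In group 4, whose genes pattern the neck vertebrae, Hoxa4 stood at 8.10, Hoxb4 at 7.61, Hoxd4 at 6.74 and Hoxc4, needed for the muscle of the oesophagus in mouse, at 6.32. In group 6 the means were 7.74 for Hoxa6, 7.08 for Hoxc6 and 6.22 for Hoxb6, and in group 7 they were 7.16 for Hoxb7 and 6.78 for Hoxa7. Each cluster except Hoxc had a member of groups 2 to 5 above the 75th percentile.

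Posterior genes were dim in all 4 clusters. The brightest of them were Hoxb9 at 6.32 ± 0.25 (SD, n = 3) and Hoxc9 at 6.06 ± 0.20 (SD, n = 3), genes of thoracic identity. Hoxa9, Hoxa10, Hoxa11 and Hoxa13 lay between 4.56 and 5.02. Hoxd13, which marks the hindgut and the limb tips, read 5.03, 4.45 and 5.11 in controls, and Hoxa13, with the same territories, read 5.20, 4.82 and 5.02. Hoxb13, Hoxc13 and Hoxd12 had means of 5.35, 4.67 and 5.01. For a yardstick of dim probe sets, chosen after the values were seen, the 1015 olfactory receptor genes were used, which are usually silent outside the nose. Their median control signal was 3.97 and their 95th percentile 5.52. Above that percentile stood 20 of the 21 members of groups 1 to 8, all but Hoxd1, and 4 of the 16 of groups 9 to 13, Hoxb9, Hoxc9, Hoxd9 and Hoxd11. A dim signal of the other posterior genes does not show that their RNA was absent.

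**Figure D2:**
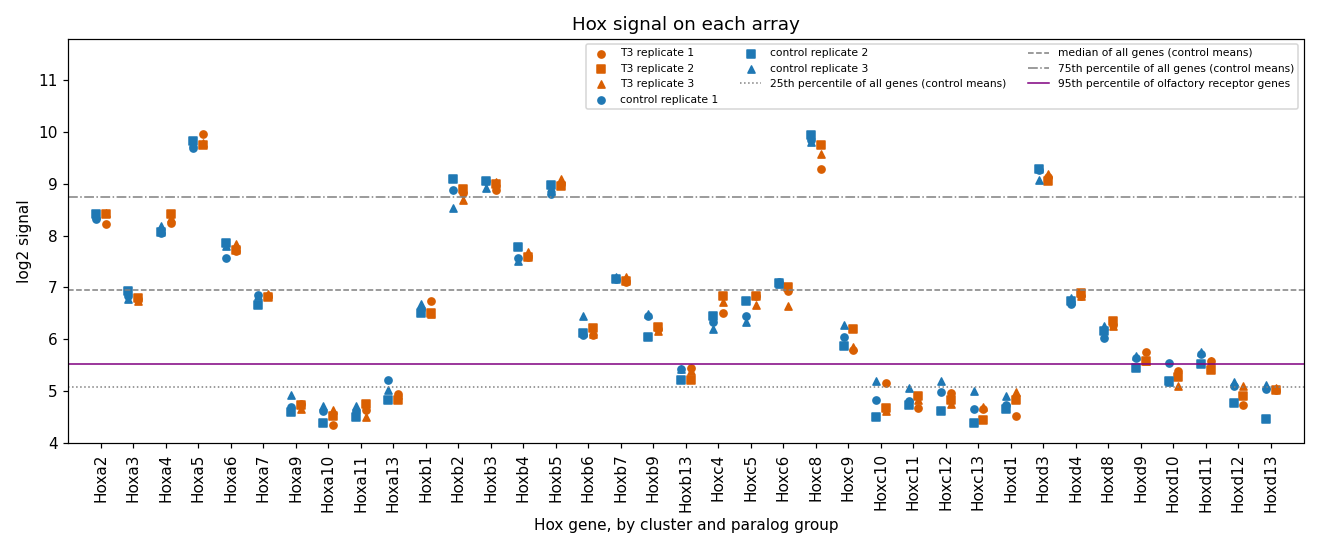
Log2 signal of the 37 Hox genes on each of the 6 arrays (blue, control; orange, T3; the marker shape gives the replicate number); horizontal lines give the 25th percentile, median and 75th percentile of all genes in controls and the 95th percentile of olfactory receptor genes (5.52). Blue and orange points of a gene mostly overlap, and the genes of groups 9 to 13 all lie under the line for the median in controls.

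The sequence just upstream of the start is shown for a pair of bright genes, Hoxa5 and Hoxd3, for a dim posterior gene, Hoxa13, and for Hoxc4, which had the largest log2 change of the members with T3. RefSeq promoter sequences (GRCm38.p6) were at hand for 21 of the 37 members, and the 250 bases before the start were read in each. Capitals mark the receptor half-site AGGTCA, which appears as TGACCT where it lies on the other strand; lower case is all other sequence.
Hoxa5, chr6:52204588-52204837, minus strand: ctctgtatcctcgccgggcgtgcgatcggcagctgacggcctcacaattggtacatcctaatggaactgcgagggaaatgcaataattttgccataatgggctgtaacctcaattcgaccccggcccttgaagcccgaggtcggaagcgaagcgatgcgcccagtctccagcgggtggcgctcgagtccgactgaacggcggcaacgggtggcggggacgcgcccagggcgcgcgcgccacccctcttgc
Hoxd3, chr2:74711743-74711992, plus strand: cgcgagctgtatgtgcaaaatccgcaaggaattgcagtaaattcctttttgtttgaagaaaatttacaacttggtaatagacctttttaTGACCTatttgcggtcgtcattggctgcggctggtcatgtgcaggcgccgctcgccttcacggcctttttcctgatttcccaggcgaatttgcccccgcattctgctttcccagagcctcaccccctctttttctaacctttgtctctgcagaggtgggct
Hoxc4, chr15:103034145-103034394, plus strand: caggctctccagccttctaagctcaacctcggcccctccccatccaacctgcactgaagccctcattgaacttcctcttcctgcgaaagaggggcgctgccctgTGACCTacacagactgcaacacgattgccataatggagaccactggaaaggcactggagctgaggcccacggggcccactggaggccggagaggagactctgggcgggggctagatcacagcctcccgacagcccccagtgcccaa
Hoxa13, chr6:52260881-52261130, minus strand: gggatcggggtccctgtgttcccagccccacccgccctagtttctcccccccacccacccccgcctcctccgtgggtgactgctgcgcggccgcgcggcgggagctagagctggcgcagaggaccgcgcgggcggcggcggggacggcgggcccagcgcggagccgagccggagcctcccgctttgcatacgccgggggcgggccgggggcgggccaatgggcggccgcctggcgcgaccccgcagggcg
The windows of Hoxa5 and Hoxa13 hold no AGGTCA on either strand, and those of Hoxd3 and Hoxc4 hold 1 each. Read on both strands, AGGTCA was in 6 of 23 Hox promoters (26.1%; some genes have several starts), those of Hoxb4, Hoxc4, Hoxd3, Hoxd4, Hoxd8 and Hoxd10, and in 14% of all 32851 promoters. Direct repeats of that half-site with 4 bases between them, the thyroid type, or 5, a retinoid type, both of which contain it, were in 0 Hox promoters and in 0.0152% and 0.00913% of all. The Hox and Pbx site TGATTNAT, on both strands and without overlap of the others by its letters, was in 2 Hox promoters, those of Hoxa2 and Hoxd11, and in 2.82% of all. Such matches describe letters in this window and are no evidence of binding. The median number of CpG pairs in the window was 10 for the 12 promoters of groups 1 to 8, 13 for the 11 of groups 9 to 13 and 6 for all promoters. Counts ran from 3 to 28 in groups 1 to 8 and from 2 to 35 in groups 9 to 13. Hoxa13, one of the dim genes, had the 35 CpG pairs and Hoxa5, one of the bright ones, the 28. The other windows shown, those of Hoxd3 and Hoxc4, had 12 and 8.

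T3 left no Hox gene with a change that passed the test. With limma and Benjamini-Hochberg adjustment over all 19938 genes, 0 of 37 members were called higher or lower at an adjusted p under 0.05, where 3.1% of all genes were called (2.28% higher and 0.823% lower). The lowest adjusted p of a member was 0.124, for Hoxc4. At an unadjusted p under 0.05 stood 5 members, 13.5%, 3 of them higher and 2 lower, beside 13.7% of all genes (8.92% higher and 4.8% lower). The 3 T3 and 3 control values did not overlap for 6 members, 16.2%, 4 of them higher and 2 lower, beside 19.5% of all genes (11.9% higher and 7.55% lower). Both shares are close to the background. The median log2 change of the members was -0.03, with a range of -0.32 to 0.37, and that of all genes was 0.0088. The absolute change was under 0.1 for 23 members, 62.2%, against 60.3% of all genes. The missing calls do not show that the groups were equal, but the intervals bound the size of the change in signal. Of the members, 13 were not above the 95th percentile of olfactory receptor genes, 12 of them in groups 9 to 13. Background compresses differences of such dim genes, so their intervals do not bound a change in RNA. For 35 of 37 members the 95% interval of the change lay within a 1.5-fold difference in either direction. The exceptions were Hoxc4, with an interval of 0.13 to 0.60, and Hoxc8, with one of -0.59 to -0.06.

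**Figure D3:**
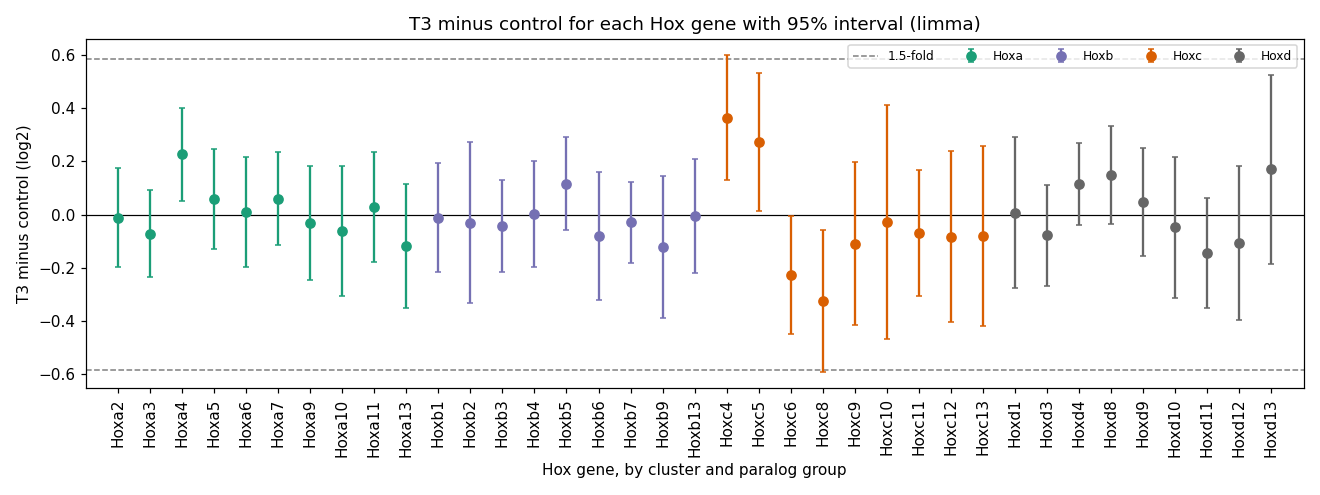
T3 minus control log2 change of each Hox gene with its 95% interval (limma, 3 arrays per group), in order of cluster and paralog group; dashed lines mark a 1.5-fold difference either way. The intervals of 32 genes cover 0, and the widest departures are in the Hoxc cluster, from 0.37 for Hoxc4 to -0.32 for Hoxc8.

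Of the 6 bright genes, all but Hoxc8 had a 95% interval that covered 0. Hoxa5 read 9.96, 9.75 and 9.78 in T3 replicates 1 to 3 against 9.69 to 9.83 in controls, a log2 change of 0.06 ± 0.08 (SE) with adjusted p = 0.872 (limma). Hoxb5 read 9.0, 8.95 and 9.10 with T3 against 8.81 to 8.97, a change of 0.12 ± 0.08 (SE; limma, adjusted p = 0.618). For both genes the groups overlapped. Hoxb3 and Hoxd3 had changes of -0.04 and -0.08, and Hoxb2 and Hoxa2 had changes of -0.03 and -0.01, with adjusted p (limma) of at least 0.792 for all 7 members of groups 1 to 3. For Hoxb5 the 95% interval ran from -0.06 to 0.29, and for Hoxa5 from -0.13 to 0.25.

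The widest spread of values was within the Hoxc cluster, where Hoxc4 and Hoxc5 lay above 0 and Hoxc6 and Hoxc8 below it. Hoxc4 read 6.32, 6.44 and 6.19 in control replicates 1 to 3 and 6.5, 6.82 and 6.73 in T3 replicates 1 to 3, so that every T3 value was above every control value. Its log2 change was 0.37 ± 0.10 (SE), a 1.29-fold difference in signal, with unadjusted p = 0.00706 and adjusted p = 0.124 (limma). Hoxc5, its neighbour, read 6.45, 6.74 and 6.32 in controls and 6.84, 6.84 and 6.66 with T3, a change of 0.27 ± 0.11 (SE) with adjusted p = 0.331 (limma). Here the groups overlapped, since T3 replicate 3 was below control replicate 2. Hoxc8, by contrast, read 9.86, 9.93 and 9.80 in controls and 9.28, 9.76 and 9.58 with T3, a change of -0.32 ± 0.12 (SE) with adjusted p = 0.240 (limma). Its values did not overlap, and T3 replicate 1 was the lowest. Hoxc6 read 7.11, 7.08 and 7.07 in controls and 6.92, 7.0 and 6.65 with T3, a change of -0.23 ± 0.10 (SE) with adjusted p = 0.344 (limma). These 4 genes kept their sign under every alternative setting in which they were tested. Several of those settings alter only the test or the set of genes, and so cannot turn a sign. None of the 4 changes passed the test as reported. That Hoxc4 and Hoxc8 differ in their change was not tested.

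Elsewhere in the middle groups, Hoxa4 read 8.05, 8.07 and 8.18 in controls and 8.24, 8.42 and 8.33 with T3, a change of 0.23 ± 0.08 (SE) with unadjusted p = 0.0171 and adjusted p = 0.204 (limma). Its groups did not overlap, nor did those of Hoxd4 (change 0.11) and Hoxd8 (0.15), with adjusted p of 0.562 and 0.50 (limma). With Hoxb4 at 0.00087, the values of group 4 ran from there to 0.37 for Hoxc4, and those of group 5 from 0.06 to 0.27. The sign of Hoxb4 turned under 5 of 16 alternatives, centring on the 75th percentile among them, and that of Hoxa5 without T3 replicate 1. The other members of groups 6 to 8, Hoxa6, Hoxb6, Hoxa7 and Hoxb7, had changes between -0.08 and 0.06. Among the posterior genes the changes ran from -0.15 for Hoxd11 to 0.17 for Hoxd13, and none of the 16 had an unadjusted p under 0.05 or groups that did not overlap.

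One alternative setting changed the count of calls. When limma weighted the arrays by quality, Hoxa4, Hoxc4, Hoxc5, Hoxd4 and Hoxd8 were called higher and Hoxa13 and Hoxd11 lower, with adjusted p from 0.00314 for Hoxc4 to 0.0444 for Hoxd4. That fit gave control replicate 1 a weight of 6.18 against 0.414 to 1.69 for the other 5 arrays. It called 3548 of all 19938 genes in place of 618, beside 7 of the 37 members. The calls of the members thus came with a rise in calls over all genes.

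The spread between arrays of one group differed along the clusters. The mean signal of the 16 members of groups 9 to 13 was 5.20, 4.93 and 5.30 in control replicates 1 to 3 and 5.12, 5.09 and 5.08 in T3 replicates 1 to 3, so the control arrays lay on both sides of the T3 arrays. Control replicate 2 was the lowest control for 15 of these 16 genes and control replicate 3 the highest for 14. Hoxc10, a gene of lumbar identity, read 4.82, 4.49 and 5.20 in controls. The 21 members of groups 1 to 8 had means of 7.52, 7.59 and 7.54 in controls, and control replicate 2 was the lowest for 3 of them. Over all genes whose control mean was in the range of the posterior members, control replicate 2 was the lowest for 62.9% of 5047 and control replicate 3 the highest for 59.9%. The array that was low for posterior Hox genes was thus low for most genes of like signal. The median control SD was 0.20 for the posterior members and 0.14 for those 5047 genes, and whether these sets differ was not tested. The lists of epithelium, macrophage, endothelium and mesothelium markers also had their lowest control mean on replicate 2 and their highest on replicate 3, from 5.25 to 5.51 for epithelium and from 6.21 to 6.41 for endothelium. The same order held for the lists of Hox regulators and gut regional factors, and the part of any of these in the result was not tested.

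**Figure D4:**
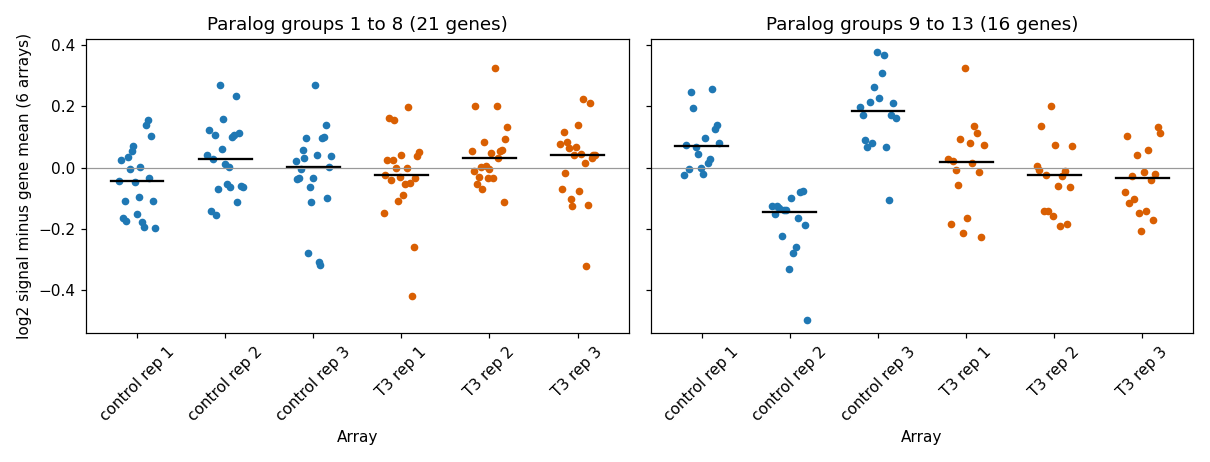
Log2 signal of each Hox gene on each array minus its mean over the 6 arrays (points, one per gene; black bar, median over genes), for the 21 genes of groups 1 to 8 and the 16 of groups 9 to 13 (blue, control; orange, T3). Posterior genes mostly sit low on control replicate 2 and high on control replicate 3, with the medians of the T3 arrays between them.

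Hox proteins bind DNA with partners of the Pbx, Meis and Pknox families, and the list of cofactors tested also held Tgif genes. Of 10 measured cofactor genes, 0 were called, and 0 had an unadjusted p under 0.05 (limma), beside 3.1% and 13.7% of all genes. Above the 75th percentile of all genes in controls stood 5 of the 10, Meis2 at 10.24, Pbx3 at 10.15, Pbx2 at 9.43, Meis1 at 9.07 and Tgif1 at 8.90, while Pbx4 stood at 6.47. Meis1 had the smallest p, at -0.13 ± 0.07 (SE) on the log2 scale (limma, adjusted p = 0.438). The other 3 of smallest p, Tgif2, Pknox1 and Tgif1, had changes of -0.18, -0.14 and -0.08, and the median of the list was -0.04.

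Genes that control Hox transcription included 1 that fell, where 0.823% of all genes were called lower. Egr2, the zinc finger factor that switches on Hoxa2 and Hoxb2 in the hindbrain and also acts in Schwann cells, fell by 0.64 ± 0.10 (SE) on the log2 scale from 9.23, with adjusted p = 0.0144 (limma). Without control replicate 1 that call was lost (adjusted p = 0.0567). Hoxa2 and Hoxb2, its targets in the hindbrain, had the changes of -0.01 and -0.03 given above. Whether Egr2 acts on them in these spheres was not tested. The other 6 of 7 measured genes of this list did not pass. Of the Cdx genes, posterior activators of Hox genes, Cdx1 stood at 6.82 in controls, near the median of all genes, and Cdx2 and Cdx4 were dimmer at 5.00 and 3.45. Gdf11, a ligand that sets the trunk-to-tail transition, was at 9.09 with a change of 0.06. Ctcf, which marks borders within the clusters, was the brightest at 9.37, with a change of -0.04.

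Retinoic acid, which induces anterior Hox genes, acts through receptors of which Rarb was called. Rarb rose by 0.94 ± 0.12 (SE) from 7.33 in controls, with adjusted p = 0.00578 (limma), and passed under every alternative run. The other 16 of 17 measured retinoid genes did not pass, among them Aldh1a3, an enzyme of retinoic acid synthesis, at -0.90 (adjusted p = 0.0517, limma), Rxrg at 0.50 (0.0614) and Crabp1, a retinoic acid-binding protein and the brightest of the list, at -0.41 (0.0984). At an unadjusted p under 0.05 (limma) stood 6 of the 17, beside 13.7% of all genes. Aldh1a3 and Rxrg each passed under 6 of 16 alternatives (adjusted p from 0.00858 to 0.127 and from 0.00159 to 0.253), and Crabp1 under 3 (from 0.00232 to 0.303). For each of them the passes include the looser threshold of 0.1, which the adjusted p given above already meets.

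Chromatin regulators of the clusters did not pass. Over all genes, 3.1% were called and 13.7% had an unadjusted p under 0.05 (limma). Of 23 Polycomb group genes, which keep Hox genes silent, 0 were called and 2 had an unadjusted p under 0.05 (limma), Phf19 with a change of 0.47 (adjusted p = 0.138) and Jarid2 with one of 0.17 (adjusted p = 0.279). Ezh2, the methyltransferase of the complex, was at 10.15 in controls with a change of -0.05. Trithorax group genes and H3K27 demethylases keep Hox genes active, and their list of 15 also held related factors such as Dot1l and Aff4. Of the 15, 0 were called and 1 had an unadjusted p under 0.05 (limma). This was Kdm6b, a demethylase, at 0.31 ± 0.07 (SE) with adjusted p = 0.0543 (limma). Kdm6b passed under 7 of 16 alternatives (adjusted p from 0.00655 to 0.172), among them the looser threshold of 0.1. Kmt2a, the methyltransferase known for Hox maintenance, had a change of -0.17 (adjusted p = 0.433, limma).

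Other factors of gut regional identity gave 1 call among 25 measured genes, where 3.1% of all genes were called. Hand1 rose by 0.37 ± 0.07 (SE) with adjusted p = 0.0354 (limma), a call that ended when T3 replicate 1, 2 or 3 or control replicate 1 or 3 was left out (highest adjusted p 0.174). Gata6 had a change of -0.40 (adjusted p = 0.106), Sox2, the brightest of the list at 11.31, one of -0.23 (0.160), and Nr2f1 one of -0.15 (0.362). The intestinal and pancreatic factor Pdx1 was at 5.54 in controls and the stomach factor Barx1 at 6.66, both below the median of all genes. Other genes of the list were above that median, among them Foxf1 at 11.01, Nkx3-2 at 7.86 and Nkx2-3 at 7.54. The mean control signal of the list was 7.12, so the low pair does not stand for the list.

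Markers of several cell types also held called genes in the same limma fit, which called 3.1% of all genes. Of 10 smooth muscle markers 3 rose and 2 fell, with array means of 7.39 to 7.54 in controls and 7.54 to 7.62 with T3. Of 13 neuron markers 2 rose and 1 fell (9.56 to 9.78 against 9.79 to 9.85), and of 6 markers of interstitial cells of Cajal 2 rose (9.50 to 9.69 against 9.75 to 9.86). Of 8 endothelium markers 1 rose and 2 fell (6.21 to 6.41 against 6.24 to 6.43), and of 11 fibroblast and mesenchyme markers 1 rose and 1 fell. No enteric progenitor, glia, macrophage, epithelium or mesothelium marker measured was called. The part of these markers in the changes of Egr2, Rarb and Hand1 was not tested.

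The clusters also hold noncoding genes and end among unrelated neighbours. Mature sequences of the hairpins inside the clusters are shown because miR-10 and miR-196 are known to act on Hox mRNAs; capitals mark the seed, bases 2 to 8 (RefSeq, GRCm38.p6).
mmu-miR-10a-5p: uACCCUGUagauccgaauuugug
mmu-miR-10b-5p: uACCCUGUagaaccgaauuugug
mmu-miR-196a-5p: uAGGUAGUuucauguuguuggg
mmu-miR-196b-5p: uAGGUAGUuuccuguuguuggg
The miR-10 pair shares the seed ACCCUGU and the miR-196 pair the seed AGGUAGU. In the RefSeq table Mir10a lies within the span of Hoxb3, between Hoxb5 and Hoxb4, and Mir10b within the spans of Hoxd3 and Hoxd4. Mir196b lies between Hoxa9 and Hoxa10, Mir196a-1 between Hoxb13 and Hoxb9 and Mir196a-2 between Hoxc10 and Hoxc9. The probe sets named for these genes were dim, at 3.20 for Mir10a, 3.07 for Mir10b, 3.75 for Mir196a-1, 3.77 for Mir196a-2 and 4.99 for Mir196b in controls. They do not measure the mature RNAs. Of 10 measured noncoding genes 0 were called and 0 had an unadjusted p under 0.05 (limma), with Mir615, the brightest at 7.01, at a change of -0.19 (adjusted p = 0.541). Of 20 genes at the cluster edges 0 were called and 1, Mtx2, had an unadjusted p under 0.05, with a change of -0.17 and adjusted p = 0.295 (limma). The shares over all genes were 3.1% called and 13.7% at that unadjusted p. Evx1 and Evx2, the homeobox genes at the posterior ends of 2 clusters, were at 5.19 and 6.36 with changes of 0.01 and 0.08.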

How the data were processed

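The authors deposited 1 table of log2 signals, with 35556 probe sets on 6 arrays; the submitters' processing notes name RMA and Partek version 6.5, and the sources used here give neither settings nor genome build. RMA as usually run normalizes arrays by quantiles, which removes changes common to most genes, and background compresses differences of dim genes. The table held 0 further sample columns. Probe sets with 1 symbol in the platform annotation (21789) entered, 1 per gene by highest mean, giving 19938 genes; 1621 with several symbols and 12146 not listed did not.

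T3 minus control was tested with limma 3.58.1 in R 4.3.3 (lmFit, eBayes; two-sided), and p-values were adjusted by Benjamini-Hochberg across the 19938 genes. SE and 95% intervals are limma's, SD is over 3 arrays. The limma script was tested on simulated data. The labels do not say whether T3 and control dishes shared a preparation, and the p-values reflect only how far these samples spread.

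The members, gene lists and tests were chosen with earlier results of these data known. All members may be named. Of each list, called genes, up to 4 of smallest p and the brightest may be named. Cdx1, Pbx2, Pbx3, Pbx4, Pdx1, Barx1, Foxf1, Nkx3-2, Nkx2-3, Evx1, Evx2 and the miRNA genes were chosen after their values were seen. In RefSeq 10 of the 37 members overlap another member's span (for example Hoxa3 with Hoxa4, Hoxa5 and Hoxa6), so their signals may not be fully separate.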

Additional observations from a re-analysis of the deposited data

How the results depend on the processing

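The count of 0 called Hox genes held in either direction under 15 of 16 alternatives: the replicate block, a second quantile normalization, arrays centred on their median or on their 75th percentile, filters that drop the dimmest 25% or 50% (26 and 11 members stayed), probe sets averaged by gene, trend and robust fitting, an adjusted p under 0.1, and leaving out any 1 array. The threshold of 0.1 could add no call, since the lowest adjusted p of a member was 0.124 (limma). With array quality weights the count was 5 higher and 2 lower. Over the 37 genes 7 of 555 recomputed values passed, all under those weights, and no called value turned its sign. One sign was kept throughout by 16 members, 6 above 0 and 10 below. The replicate block, dim filters, averaging, trend and robust fitting and the threshold of 0.1 cannot change a member's log2 change or its sign. The median change ran from -0.05 to 0.03, and the highest was without control replicate 3. The number of all genes called was 618, with 3548 under quality weights, 962 at an adjusted p under 0.1, and 191 to 640 without 1 array (395, 262 and 256 without T3 replicate 1, 2 or 3, 191, 640 and 405 without control replicate 1, 2 or 3); the cause was not tested. The number of bright Hox genes was 6, against 12 above the median of all genes, 24 above the 95th percentile of olfactory receptor genes, a yardstick added after the data were seen, and 5 to 6 without 1 control array; these 2 larger counts follow from the lower thresholds. With the replicate number as a block 472 genes were called, 0 of them Hox genes, and among the called genes named here Hand1 lost its call (adjusted p = 0.0599, limma) while Aldh1a3 gained one (0.0151). Deviations of same-numbered arrays correlated at 0.18, 0.02 and 0.00017, and not every array correlated best with its own number, so the numbers were not taken as pairs. Dim posterior genes are limited by unknown background, so small changes there would not be detectable.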

Other observations

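One probe set that carries the names of both Hoxb8 and Hoxb7 (10380629) is outside the genes tested. It read 6.84, 7.05 and 7.05 in control replicates 1 to 3 and 6.39, 6.63 and 6.59 in T3 replicates 1 to 3, and the groups did not overlap. In a limma fit over all 35556 probe sets, added after the values were seen, its log2 change was -0.44 ± 0.10 (SE), with unadjusted p = 0.00359 and adjusted p = 0.166. That change was larger in size than any of the 37 members, though it did not pass, and 0.461% of all probe sets were called in that fit. The probe set with the name Hoxb7 alone had a change of -0.03 ± 0.07 (SE). Which gene the shared signal comes from is not known.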
